A study of Rattus norvegicus with 10 samples.

Results

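Cathepsins are the proteases of the lysosome, and cystatins are the proteins that block the cysteine-type ones. Their transcripts were measured in rat microglia, the resident macrophages of the brain, on Affymetrix RG_U34A arrays. The genes described are the proteases Ctsb, Ctsc, Ctsd, Ctsh, Ctsk, Ctsl and Ctss and the inhibitors Cst3 and Cstb. Every probe set that the platform annotation assigns to one of these 9 genes and to no other was taken, which gave 14 of the 8740 tested probe sets, 10 for proteases and 4 for inhibitors. All 14 are accounted for below, and 13 of them had a mean deposited signal of at least 32, the exception being the Ctsk probe set.

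The IFN-gamma group was 3 primary microglial cultures kept for 16 hours in new medium that held interferon gamma (IFN-gamma) at 100 U/ml, a cytokine released by activated lymphocytes. IFN-gamma culture 1 was measured on 3 technical arrays (1a, 1b and 1c), which were averaged, and cultures 2 and 3 on 1 array each. The control group was 5 independent cultures without IFN-gamma, numbered 1, 2, 3, 5 and 6, and the labels do not say whether their medium was renewed at the same time. All cells came from neonatal rat brain, 1 brain to a flask, grew in DMEM with 15% fetal calf serum and went into dishes on day 15 with 100000 cells in each, so both groups are cultured, serum-exposed cells. The labels name no strain or sex.

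The cysteine cathepsins B, C, H, K, L and S share the papain fold and use a catalytic cysteine, whereas cathepsin D is an aspartic protease that cystatins do not block. In macrophages and microglia these enzymes digest phagocytosed and autophagic cargo, and some of them trim antigen and the invariant chain on the class II loading route. Cystatin C, encoded by Cst3, is secreted and binds cysteine cathepsins outside cells and in the endosomal route, and cystatin B, encoded by Cstb, acts in the cytosol and nucleus.

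The deposited signals differed in scale between arrays. The median signal per culture was 17.9 ± 2.78 with IFN-gamma (SD, n = 3) and 15.3 ± 5.50 in the controls (SD, n = 5; exact permutation p = 0.518, two-sided), and the dimmest array was control culture 3 at 7.40. As a sign of how intact the RNA was, the 3' to 5' signal ratio averaged 1.46 with IFN-gamma and 1.64 in the controls for GAPDH (exact permutation p = 0.232, two-sided) and 2.06 and 1.92 for beta-actin (exact permutation p = 0.518, two-sided). Levels below are log2(signal + 16) after quantile normalisation unless called unscaled. A signal of 0 is 4 on that scale and folds of dim probe sets are understated. Tests are limma with Benjamini-Hochberg adjustment over the 8740 probe sets.

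The cells were checked against 9 measured microglial markers. Of these 3 rose and 0 fell, namely Lyz2, the macrophage lysozyme gene (12.44 with IFN-gamma and 10.83 in the controls, adjusted p = 0.00464), and the complement genes C1qb (log2 fold change 1.14, adjusted p = 0.0239) and C1qc (1.31, adjusted p = 0.0364). The marker Aif1 lay at 8.24 with IFN-gamma and 7.81 in the controls, while Csf1r lay near the floor at 4.88 and 4.73 and Cx3cr1 at 4.91 and 5.19. The summed linear level of the microglial list ran from 7132 to 8269 with IFN-gamma, against 2454 to 3542 in the controls, and from 1755 to 2058 against 1075 to 1319 without Lyz2. Of the 8 astrocyte markers measured, Glul, glutamine synthetase, fell (log2 fold change -1.66, adjusted p = 0.00301), and the list's sum was 254 to 310 with IFN-gamma against 579 to 960 in the controls. Without Glul the sum ran from 111 to 135 with IFN-gamma and from 114 to 221 in the controls, and the groups overlapped. Of those 7 markers the glutamate transporter gene Slc1a3 was clear of the floor, at 6.04 with IFN-gamma and 6.17 in the controls. The other 6 lay at 5.22 or below with IFN-gamma and at 5.40 or below in the controls, Gja1 nearest the floor at 4.24 and 4.11. The summed levels of the oligodendrocyte, neuron, fibroblast and vessel, and T and natural killer cell lists overlapped between the groups, and 1 of their genes changed by any probe set, Col1a1 by a dimmer one (-1.20, adjusted p = 0.0239). The part of any of these shifts in the cathepsin values was not tested.

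After quantile normalisation the transcripts of 3 cathepsins, Ctsl, Ctsd and Ctsb, were lower in the IFN-gamma cultures, and no member passed the test in the other direction. With the other scalings given below Ctsb did not pass, and with no scaling no member did. Any part of the new medium in these differences was not tested. Of the 14 probe sets 4 passed, against 1.53% of all tested probe sets. All 4 fell and 0 rose, against 0.606% of all probe sets that fell and 0.927% that rose. Dim probe sets can hardly pass, and most of the 14 were not dim. When the 2626 probe sets with a mean deposited signal of at least 32 were fitted alone, 170 passed (115 higher, 55 lower). Of the 13 members among them 5 were lower and 0 higher. At an unadjusted p under 0.05, 7 of the 14 passed, against 10.5% of all probe sets. The 3 IFN-gamma cultures all lay below the 5 controls in 6 of the 14, against 3.4% of all probe sets, and all above them in 1, against 4.28%. The median log2 fold change over the 14 was -0.14, and over all tested probe sets -0.02. In RNA from whole cultures, fewer cells of a kind and less transcript per cell cannot be told apart.

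**Figure D1:**
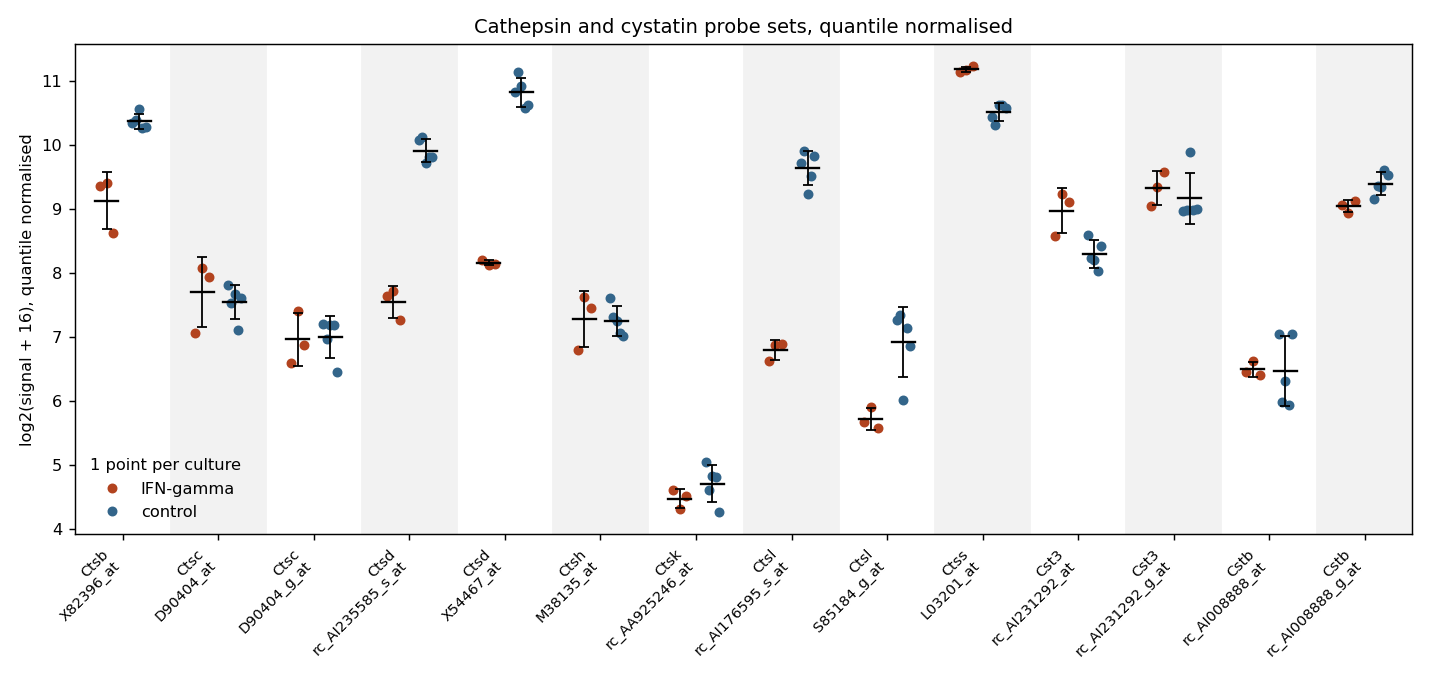
Normalised log2(signal + 16) of the 14 probe sets, with 1 point per culture (3 IFN-gamma cultures left of 5 control cultures), horizontal lines for the means and bars for the SD. The IFN-gamma points lie well below the controls for Ctsl rc_AI176595_s_at, both Ctsd probe sets and Ctsb, and just below the lowest control (6.01) for Ctsl S85184_g_at. They lie slightly above the controls for Ctss and overlap them for Ctsc, Ctsh, Ctsk and Cst3, although 2 of the 3 points of Cst3 rc_AI231292_at (9.24 and 9.11) are above every control. For Cstb the IFN-gamma points lie just below the lowest control (9.16) with rc_AI008888_g_at and overlap the controls with rc_AI008888_at.

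Ctsl encodes cathepsin L, an endopeptidase that in mice degrades the invariant chain in thymic epithelium. Its brighter probe set (rc_AI176595_s_at) lay at 6.62, 6.88 and 6.89 in IFN-gamma cultures 1, 2 and 3, against 9.71, 9.91, 9.24, 9.51 and 9.83 in control cultures 1, 2, 3, 5 and 6. Every stimulated culture was more than 2 log2 units below the lowest control, a gap many times the spread within either group. The fall was 7.19-fold (log2 fold change -2.85 ± 0.19 SE, adjusted p = 7.41e-05). The other Ctsl probe set (S85184_g_at) was dimmer, at 5.67, 5.90 and 5.57 with IFN-gamma against 7.27, 7.35, 6.01, 7.14 and 6.86 in the controls. It too was separated between the groups, but control culture 3 sat close to the stimulated cultures, and the difference did not pass (log2 fold change -1.21 ± 0.30 SE, adjusted p = 0.115). It passed in 3 of 21 other settings. Without control culture 3 it was -1.50 (adjusted p = 0.00559). The others were a mean deposited signal of at least 32 (adjusted p = 0.0350) and culture as a random block (adjusted p = 0.0309).

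Ctsd encodes cathepsin D, the main aspartic protease of lysosomes. Its brighter probe set (X54467_at) lay at 8.20, 8.12 and 8.15 in IFN-gamma cultures 1, 2 and 3, against 10.84, 11.13, 10.93, 10.58 and 10.63 in control cultures 1, 2, 3, 5 and 6. The stimulated cultures were nearly level with one another and all below every control. The fall was 6.35-fold (log2 fold change -2.67 ± 0.17 SE, adjusted p = 5.17e-05). The other probe set (rc_AI235585_s_at) lay at 7.65, 7.73 and 7.27 with IFN-gamma against 10.08, 10.12, 9.71, 9.82 and 9.82 in the controls, again with no overlap. It fell 5.15-fold (log2 fold change -2.36 ± 0.18 SE, adjusted p = 0.000161). Both Ctsd probe sets passed with falls of like size, whereas the Ctsl pair differed in size. The suffix _s_ on the second Ctsd and the brighter Ctsl probe set marks probes that can match more than 1 transcript. Probe sets with the suffix _g_, among them the brighter Cst3 and Cstb, were also left out in the setting without reduced specificity.

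Ctsb encodes cathepsin B, which acts both as an endopeptidase and as a dipeptidyl carboxypeptidase. The gene lies at chr15:41565607-41586479 in GRCr8. Its single probe set (X82396_at) lay at 9.37, 9.41 and 8.62 in IFN-gamma cultures 1, 2 and 3, against 10.35, 10.38, 10.57, 10.27 and 10.29 in control cultures 1, 2, 3, 5 and 6. The controls were tightly grouped, and IFN-gamma culture 3 was lower than the other stimulated cultures. The fall was 2.36-fold (log2 fold change -1.24 ± 0.21 SE, adjusted p = 0.0210). The direction held in all 22 other settings, but the call was lost in 9 of them, among them the omission of IFN-gamma culture 1 (-1.31, adjusted p = 0.0633), IFN-gamma culture 3 (-0.99, adjusted p = 0.0609) or control culture 2 (-1.24, adjusted p = 0.0536).

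Ctss encodes cathepsin S, the protease that completes invariant chain degradation in bone-marrow-derived antigen-presenting cells of the mouse and stays active at neutral pH. Its probe set (L03201_at) lay at 11.15, 11.17 and 11.23 in IFN-gamma cultures 1, 2 and 3, against 10.44, 10.31, 10.63, 10.63 and 10.58 in control cultures 1, 2, 3, 5 and 6. All stimulated cultures were above all controls, the only one of the 14 probe sets with that order. The difference of 1.58-fold did not pass (log2 fold change 0.66 ± 0.15 SE, adjusted p = 0.0835). It passed in 3 of 22 other settings: a pseudocount of 64 (adjusted p = 0.00697), all 10 arrays fitted with culture as a random block (adjusted p = 0.0286) and an intensity trend in the variance prior (adjusted p = 0.0377).

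For the remaining proteases no change was detectable, although the intervals leave room for moderate ones. Ctsc encodes cathepsin C, the dipeptidyl peptidase that activates serine proteases of granules. Its brighter probe set (D90404_at) lay at 7.07, 8.07 and 7.94 with IFN-gamma and between 7.11 and 7.82 in the controls, and its log2 fold change was 0.15 (95% confidence interval -0.44 to 0.74, adjusted p = 0.936). The other Ctsc probe set (D90404_g_at) had -0.04 (adjusted p = 0.987). Ctsh encodes cathepsin H, an aminopeptidase, and lay at 6.79, 7.62 and 7.45 with IFN-gamma and between 7.02 and 7.62 in the controls (M38135_at, log2 fold change 0.03, interval -0.49 to 0.55, adjusted p = 0.989). For both genes IFN-gamma culture 1 was lower than the other stimulated cultures and the groups overlapped. Ctsk encodes cathepsin K, the collagen-degrading protease of osteoclasts. Its probe set (rc_AA925246_at) lay near the floor, at 4.47 ± 0.15 with IFN-gamma (SD, n = 3) and 4.71 ± 0.30 in the controls (SD, n = 5), so that a fall could hardly have been detected (log2 fold change -0.23, adjusted p = 0.815). In the RefSeq annotation of GRCr8 Ctsk and Ctss stand near each other on chromosome 2 with 1 gene between them.

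Neither inhibitor passed the test. The brighter Cst3 probe set (rc_AI231292_g_at) lay at 9.05, 9.35 and 9.58 in IFN-gamma cultures 1, 2 and 3, against 8.97, 8.99, 9.88, 8.99 and 9.002 in control cultures 1, 2, 3, 5 and 6. Control culture 3 stood above all other cultures, and the groups overlapped (log2 fold change 0.16, interval -0.41 to 0.73, adjusted p = 0.925). The other Cst3 probe set (rc_AI231292_at) lay at 8.58, 9.24 and 9.11 with IFN-gamma against 8.59, 8.23, 8.20, 8.02 and 8.43 in the controls. Here cultures 2 and 3 lay above every control and IFN-gamma culture 1 lay among them, and the difference did not pass (log2 fold change 0.68 ± 0.21 SE, adjusted p = 0.208). The brighter Cstb probe set (rc_AI008888_g_at) lay at 9.06, 8.95 and 9.13 with IFN-gamma against 9.16, 9.35, 9.34, 9.61 and 9.53 in the controls, without overlap but with a small gap (log2 fold change -0.35, interval -0.72 to 0.01, adjusted p = 0.489). The dimmer one (rc_AI008888_at) had 0.03 (adjusted p = 0.993), with control cultures spread from 5.93 to 7.04.

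The 3 technical arrays of IFN-gamma culture 1, hybridised from 1 sample, show how far the deposited scale varied. The deposited Ctss signal was 1834, 5975 and 1429 on arrays 1a, 1b and 1c, and the deposited Ctsl signal (rc_AI176595_s_at) was 52.4, 184.9 and 54.6. Array 1b was thus several times brighter than its companions for the same sample. Over the 14 probe sets the highest technical signal was between 3.16 and 11.9 times the lowest, with the widest ratio for the dim Ctsk. After quantile normalisation the technical arrays spanned 0.04 on the log2 scale for Ctss and 0.31 for Ctsl, and at most 0.93, for Ctsh. Over all tested probe sets the median technical SD was 0.31 after normalisation and 0.45 without scaling.

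**Figure D2:**
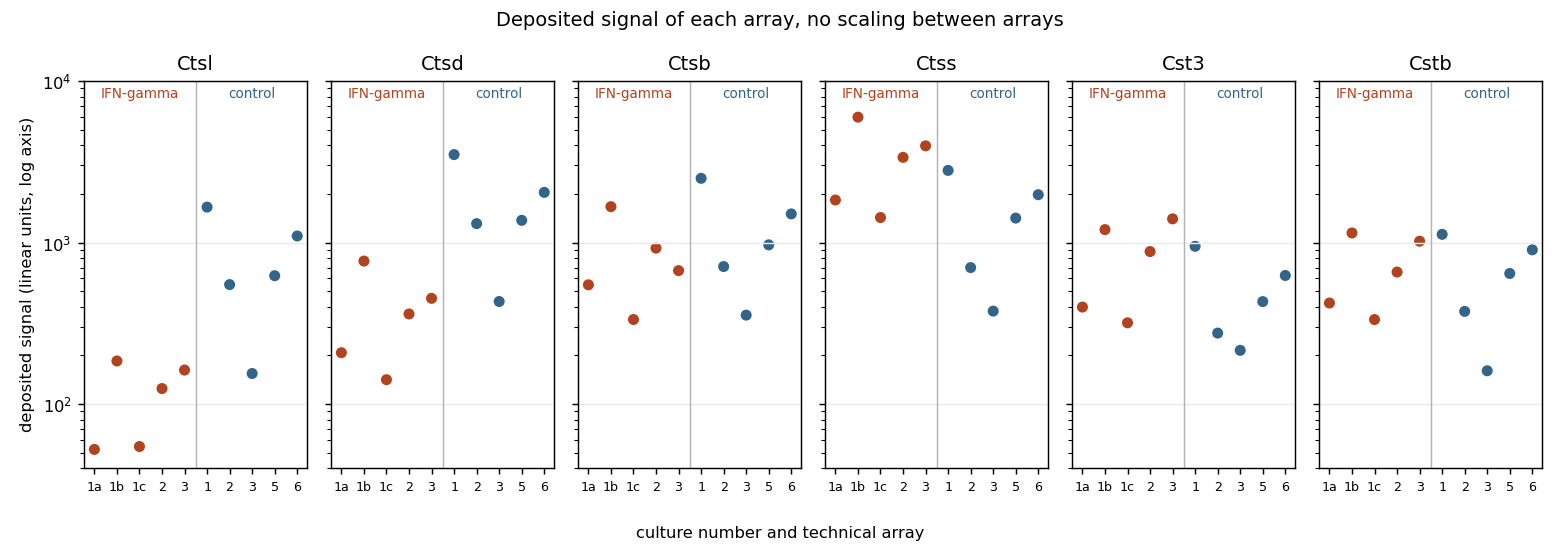
Deposited signal (log axis) on each array for the brightest probe set of 6 genes, with the 5 IFN-gamma arrays (1a to 1c are technical arrays of 1 culture) left of the 5 control arrays. In every panel array 1b is the brightest of the 3 technical arrays and control culture 3 the dimmest control. Ctsl stays at or below 184.9 on the IFN-gamma arrays, while control cultures 1, 2, 5 and 6 lie at 549.3 or above and control culture 3 at 154.6.

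With no scaling between arrays the directions of Ctsl, Ctsd and Ctsb were kept and all calls were lost. By limma 0 of the 14 passed, against 0.446% of all probe sets (0.435% higher and 0.0114% lower), and 4 of the 14 had an unadjusted p under 0.05, against 7.35% of all. In 0 of the 14 were the groups separated, against 3.58% of all probe sets above and 0.641% below. Unscaled, Ctsl (rc_AI176595_s_at) lay at 6.63, 7.14 and 7.48 in IFN-gamma cultures 1, 2 and 3, against 10.71, 9.14, 7.41, 9.32 and 10.12 in control cultures 1, 2, 3, 5 and 6. Ctsd (X54467_at) lay at 8.24, 8.56 and 8.87 with IFN-gamma, against 11.78, 10.37, 8.81, 10.44 and 11.01 in the controls. For both genes control culture 3 alone reached into the stimulated range, just under IFN-gamma culture 3. Ctss lay at 11.30, 11.73 and 11.96 with IFN-gamma, against 11.46, 9.48, 8.62, 10.49 and 10.96 in the controls, where the bright control culture 1 was above IFN-gamma culture 1. The unscaled log2 fold change was -2.26 ± 0.65 SE for Ctsl (rc_AI176595_s_at, adjusted p = 0.392), -1.93 ± 0.57 SE for Ctsd (X54467_at, adjusted p = 0.421) and -0.39 ± 0.55 SE for Ctsb (adjusted p = 0.958). Their standard errors were more than a factor of 2 above those after normalisation, and the median control SD over the 14 probe sets was 1.02 unscaled and 0.25 normalised. The unscaled medians of all probe sets were shifted as well, from -0.02 to 0.10 over all tested and from 0.02 to 0.35 over the 2626 with a mean deposited signal of at least 32. Relative to the median of those 2626, the unscaled changes of Ctsl, Ctsd and Ctsb were -2.61, -2.28 and -0.75, that of Ctss was 1.11 and that of the brighter Cst3 probe set 0.63. When control culture 3 was left out as well, an alternative chosen after seeing the data, Ctsl (rc_AI176595_s_at, -2.74, adjusted p = 0.0290) and Ctsd (X54467_at, -2.34, adjusted p = 0.0360) passed and the other 12 probe sets did not.

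The kind of scaling changed the sizes for the inhibitors and Ctss. With array medians subtracted Ctss was higher by 1.34 and the 2 Cst3 probe sets by 1.26 and 0.86 on the log2 scale, and with a trimmed mean by 1.01, 0.97 and 0.54, and none of these passed. The brighter Cstb probe set was at -0.35 quantile normalised, -0.007 with the trimmed mean, 0.31 with medians subtracted and 0.43 unscaled, so its direction depended on the scaling. Ctsl (rc_AI176595_s_at) and both Ctsd probe sets passed under each of the 3 scalings, where 1.45% of all probe sets passed with medians subtracted (1.14% higher, 0.309% lower) and 1.38% with the trimmed mean (0.938% higher, 0.446% lower). Over these scalings Ctsl lay between -2.85 and -2.38 and Ctsd (X54467_at) between -2.67 and -2.05. Ctsb passed with quantile normalisation and not with medians subtracted (-0.51, adjusted p = 0.792) or the trimmed mean (-0.84, adjusted p = 0.270).

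**Figure D3:**
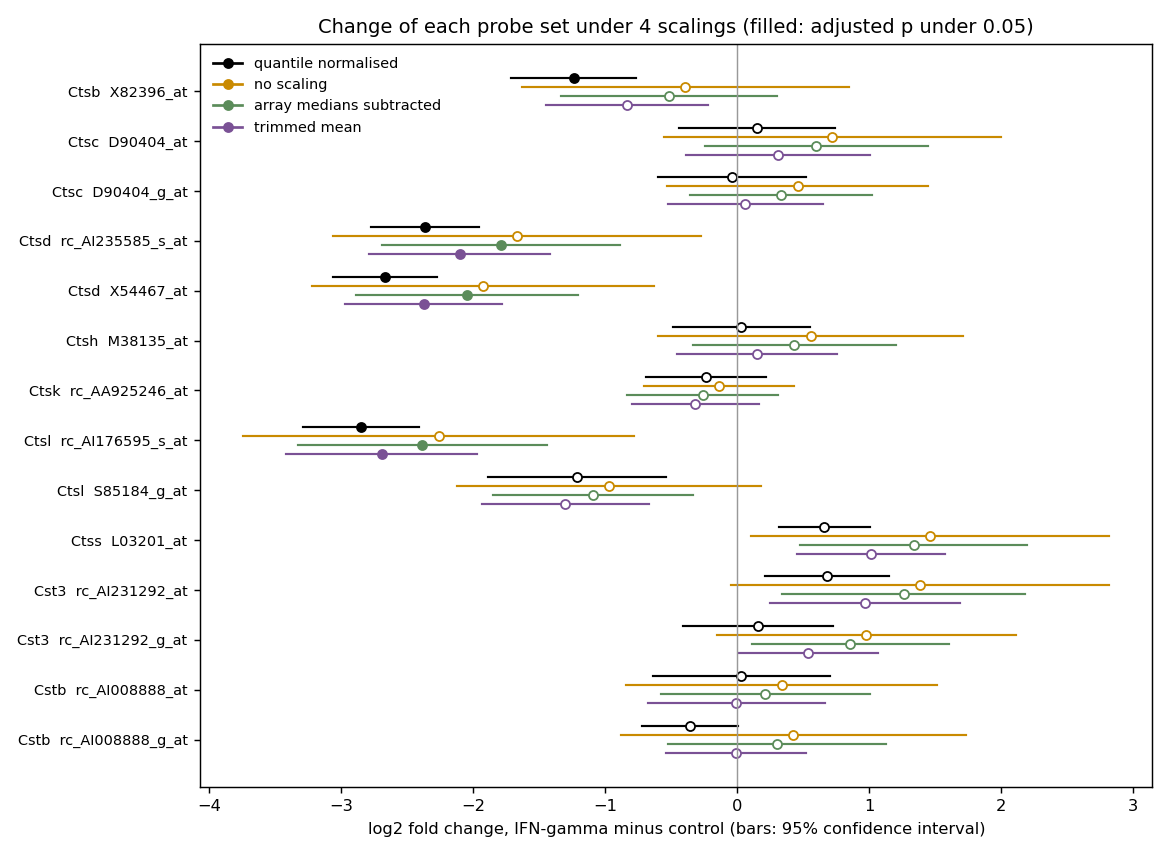
Log2 fold change (IFN-gamma minus control) of each probe set with its 95% confidence interval under quantile normalisation, no scaling, subtraction of array medians and scaling to a trimmed mean, filled where the adjusted p was under 0.05. Both Ctsd probe sets and the brighter Ctsl probe set are filled under 3 of the 4 scalings, and Ctsb under quantile normalisation alone.

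A comparison of protease and inhibitor on the same array removes most of a factor that multiplies the whole array, though not all of it because of the added 16. For each culture the unscaled log2(signal + 16) of a protease was set against that of Cst3 or Cstb, by the brightest probe sets, and only the difference between groups is read. Against Cst3, 3 of 7 proteases (Ctsl, Ctsd and Ctsb) were separated downward, where 7.43% of all probe sets were, and 0 upward, where 0.835% were. Against Cstb the same 3 were separated downward (1.58% of all probe sets) and Ctss upward (2.11%). These are descriptions with no test, and they show unequal change, not which of the 2 transcripts moved. When no pseudocount was added the 3 genes and Ctss lay in the same order between the groups, and the sizes moved (Ctsl against Cst3 from -3.24 to -3.42).

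Ctsl minus Cstb was -2.51, -2.26 and -2.54 in IFN-gamma cultures 1, 2 and 3, against 0.55, 0.53, -0.05, -0.04 and 0.28 in control cultures 1, 2, 3, 5 and 6. Ctsd minus Cstb was -0.90, -0.83 and -1.15 with IFN-gamma, against 1.63, 1.76, 1.34, 1.07 and 1.17 in the controls. The dim control culture 3 lay beside culture 5 for Ctsl and between the other controls for Ctsd, so neither separation rests on it. Ctsb minus Cstb was 0.30, 0.48 and -0.59 with IFN-gamma against 0.58 to 1.14 in the controls, with a narrow gap. Ctss minus Cstb was 2.16, 2.33 and 1.94 with IFN-gamma against 1.303, 0.87, 1.15, 1.12 and 1.12 in the controls, so Ctss and Cstb moved apart by 1.03 between the groups. Between Ctss and Cst3 the shift was 0.48 and the groups overlapped. Ctsc, Ctsh and Ctsk overlapped between the groups against either inhibitor.

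**Figure D4:**
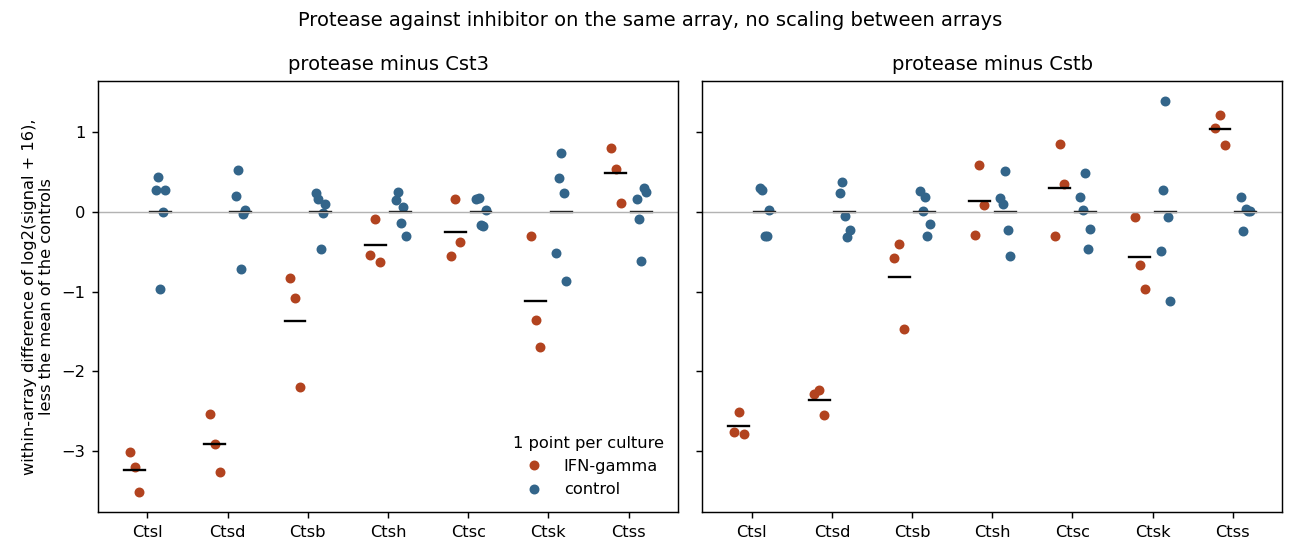
Unscaled within-array difference in log2(signal + 16) between each protease and Cst3 (left) or Cstb (right), less the control mean, with 1 point per culture (3 IFN-gamma left of 5 control) and a line for the mean. Ctsl and Ctsd lie between 2.3 and 3.3 below the controls on average, Ctsb between 0.8 and 1.4 below, and Ctss 1.0 above the controls against Cstb.

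The promoter windows of 8 of the 9 genes were found in the RefSeq table of GRCr8, each from 250 bases before to 50 after the start used there. For Ctsc, Ctss and Cst3 that start lay inside the annotated gene and not at its outer end. Both strands were searched for the E-box CACGTG (the core of sites bound by TFEB-family and other helix-loop-helix factors) and the interferon-stimulated response element, here a pair of GAAA with any 2 bases between them (bound by IRF factors). Among 33469 windows 6.42% held the first and 3.92% the second. Shown are the windows of Ctsd and Ctsl, the members with the largest falls, of Ctss, the one above all controls, and of Cstb, the other window with a match, with each match in capitals and every sequence 5′ to 3′ on the gene's strand.
Ctsl, chr17:769854-770153, plus strand: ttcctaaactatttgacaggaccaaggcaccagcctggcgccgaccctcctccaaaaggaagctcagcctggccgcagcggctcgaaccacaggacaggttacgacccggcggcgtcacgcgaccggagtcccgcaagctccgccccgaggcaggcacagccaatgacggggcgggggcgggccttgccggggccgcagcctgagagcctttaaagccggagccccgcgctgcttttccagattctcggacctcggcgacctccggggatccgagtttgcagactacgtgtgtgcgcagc
Ctsd, chr1:206968772-206969071, minus strand: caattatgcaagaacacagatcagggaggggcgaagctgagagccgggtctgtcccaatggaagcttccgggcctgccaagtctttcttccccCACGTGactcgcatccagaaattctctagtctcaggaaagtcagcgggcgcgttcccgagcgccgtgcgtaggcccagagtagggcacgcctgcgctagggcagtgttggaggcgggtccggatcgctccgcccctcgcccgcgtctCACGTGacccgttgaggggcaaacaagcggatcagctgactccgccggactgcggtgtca
Ctss, chr2:185775146-185775445, plus strand: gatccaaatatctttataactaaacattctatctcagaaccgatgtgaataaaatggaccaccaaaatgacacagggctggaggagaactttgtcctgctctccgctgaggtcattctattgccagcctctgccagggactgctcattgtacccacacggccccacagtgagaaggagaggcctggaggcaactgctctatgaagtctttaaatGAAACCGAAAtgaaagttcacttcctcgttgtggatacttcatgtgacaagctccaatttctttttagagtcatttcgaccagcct
Cstb, chr20:10247150-10247449, minus strand: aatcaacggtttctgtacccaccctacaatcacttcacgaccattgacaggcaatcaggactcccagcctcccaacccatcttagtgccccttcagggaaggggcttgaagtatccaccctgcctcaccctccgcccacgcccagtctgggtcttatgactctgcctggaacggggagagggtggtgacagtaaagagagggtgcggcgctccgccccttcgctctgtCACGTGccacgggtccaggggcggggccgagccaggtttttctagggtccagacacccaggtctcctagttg

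The Ctsd window held 2 E-boxes, at bases 94 to 99 and 241 to 246 counted from its 5′ end. The Ctss window held 1 response element at bases 215 to 224. The Cstb window held 1 E-box at bases 229 to 234. No match overlapped another. The Ctsl window held neither motif in these letters, nor did those of Ctsc, Ctsh, Ctsk and Cst3. The matches are descriptions of the sequence.

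Other genes of the pathway were taken from lists written with earlier results of these data known and are given by the brightest probe set of each gene. Over all 4736 genes 42 rose and 33 fell, 526 had an unadjusted p under 0.05 and the median log2 fold change was -0.02. Of 4 other cathepsins and lysosomal peptidases measured (Cpq, Ctse, Ctsj and Ggh), 0 passed by limma (0 at an unadjusted p under 0.05; median 0.08), and 3 of them lay below 5 in both groups. Ctse, the aspartic protease cathepsin E, was picked out after its values were seen as the one clear of the floor and lay at 6.11 with IFN-gamma and 6.06 in the controls (log2 fold change 0.05, adjusted p = 0.976). Of 13 other protease inhibitors 1 rose and 0 fell (median -0.11), and 5 lay below 5 in both groups. The riser was Serping1, the C1 inhibitor, a serpin that acts on complement and contact proteases (3.75-fold, adjusted p = 0.00557).

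Among 13 lysosomal glycosidases, lipases and other hydrolases 1 rose and 1 fell (median -0.10). Lyz2 rose 3.05-fold (adjusted p = 0.00464), and the sulfatase gene Arsb fell 2.10-fold (5.33 ± 0.20 with IFN-gamma, SD, n = 3, and 6.40 ± 0.25 in the controls, SD, n = 5; adjusted p = 0.0280). Psap, whose product is cut by cathepsin D into saposins, gave 0.32 on its brightest probe set (adjusted p = 0.637), and its other probe sets rose by 1.19 (adjusted p = 0.00375) and 1.10 (adjusted p = 0.0171). Among 14 genes of the lysosomal membrane and its acidification 2 fell and 0 rose (median -0.24). They were Lamp1, a major membrane glycoprotein (8.15 with IFN-gamma and 9.40 in the controls, adjusted p = 0.00430), and the tetraspanin gene Cd63 (9.53 and 10.61, adjusted p = 0.00740), whereas Lamp2 had -0.18 (adjusted p = 0.925). Of 14 genes that sort hydrolases to lysosomes 0 passed by limma (3 at an unadjusted p under 0.05; median -0.03), the mannose 6-phosphate receptor gene Igf2r among them (4.48 with IFN-gamma and 4.89 in the controls, adjusted p = 0.790). Igf2r was 1 of 5 of these genes that lay below 5 in both groups, near the floor, where a change could hardly have been detected.

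Of 9 class II pathway genes 5 rose and 0 fell (median 2.98), among them Cd74, the invariant chain that cathepsins S and L cleave, with a log2 fold change of 5.58 (adjusted p = 5.51e-06). RT1-Ba, RT1-Bb, RT1-Da and RT1-Db1, which encode class II chains, were the others, with log2 fold changes from 2.98 to 4.77, and RT1-DMb rose by 2 dimmer probe sets (1.97 and 2.61, adjusted p = 0.0210 and 0.0121). Of 6 transcription factors 2 rose and 0 fell, Irf1 (3.33, adjusted p = 1.08e-05) and Irf8 (1.51, adjusted p = 0.00112). Without scaling, Serping1, the 5 class II genes, Irf1 and Irf8 still passed and Lyz2, Arsb, Lamp1 and Cd63 did not.

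**Figure D5:**
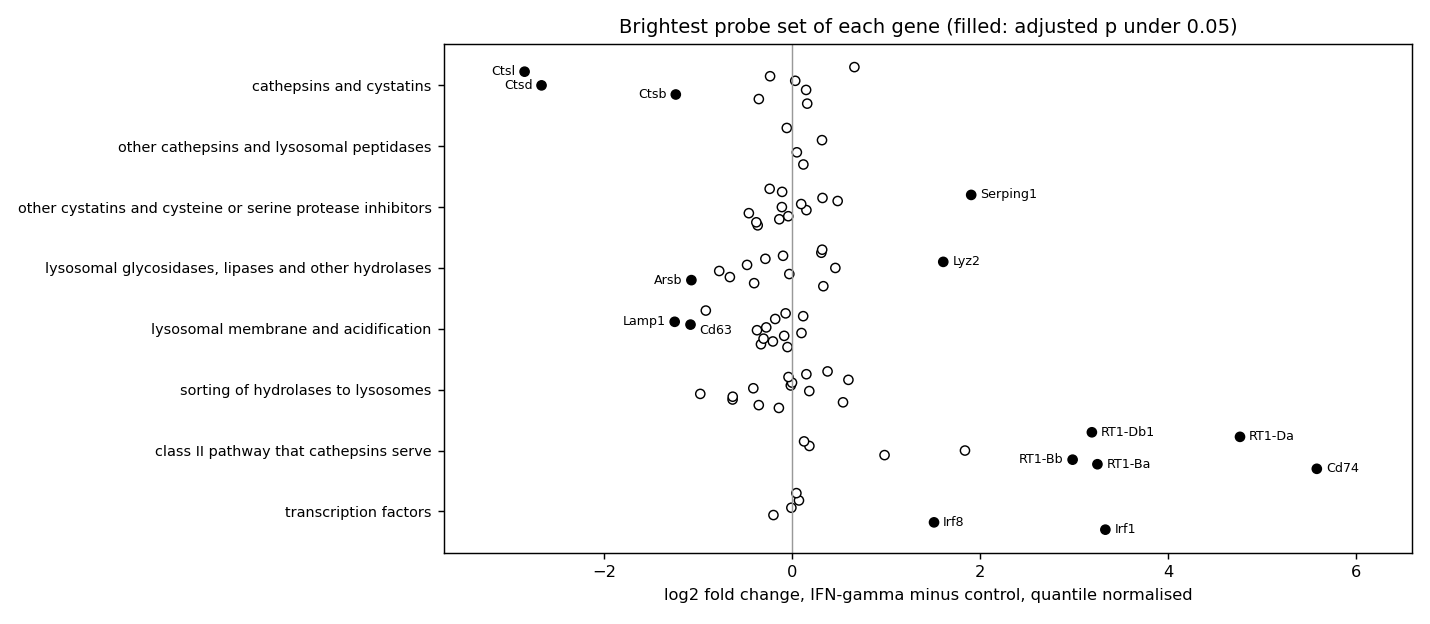
Log2 fold change (IFN-gamma minus control, quantile normalised) of the brightest probe set of each measured gene in 8 lists, filled and named where the adjusted p was under 0.05. The 3 called cathepsins lie at -2.85, -2.67 and -1.24, and the 5 called class II genes lie at 2.98 and above.

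Over the 8 cultures the genes most like each called cathepsin were named by Pearson's r between brightest probe sets, among 4736 genes and as a description, since any gene with a like group difference scores high. For Ctsd they were Pf4, the chemokine CXCL4 (r = 0.998), the co-receptor gene Cd4 (0.986) and Ctsl (0.983). For Ctsl they were the endocytic adaptor gene Dab2 (0.993), Lamp1 (0.991) and Ctsd (0.983). For Ctsb they were the apolipoprotein gene Apoe (0.974), Anxa6 (0.972) and Paqr3 (0.969). After subtraction of the group means none of these genes stayed among the 3 most alike. For Ctsd the 3 were then Eif2b1, Mobp and Mplkip (0.965 to 0.955), and for Ctsl Cabin1, Cd151 and Glod4 (all 0.971). For Ctsb they were Epn2, Tulp1 and Gpr19 (0.952 to 0.940). A pick of the highest among 4736 genes over 8 cultures can give high values by itself, and none was tested. Mobp lay near the floor, at 4.66 with IFN-gamma and 4.70 in the controls. The deviations of Ctsd (X54467_at) and Ctsl (rc_AI176595_s_at) from their group means had r = 0.10. The other Ctsd probe set (rc_AI235585_s_at) had r = 0.39 with the same Ctsl probe set and 0.69 with the dimmer one (S85184_g_at). Between X54467_at and the dimmer Ctsl probe set r was -0.01. Likeness within the groups thus varied with the probe set, and 8 cultures are too few to settle it. Between the probe sets of 1 gene the deviations had r = 0.73 for Ctsl, 0.39 for Ctsd, 0.41 for Ctsc, 0.10 for Cst3 and -0.39 for Cstb. Each value rests on 8 cultures, and differences among these genes were not tested. The Cst3 value includes control culture 3, which stood above all other cultures on the brighter probe set.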

How the data were processed

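Signals came from 10 Affymetrix RG_U34A arrays (5 IFN-gamma arrays from 3 cultures, 5 control arrays from 5 cultures). The deposited table holds 1 linear signal intensity per probe set and array. Per the submitters' processing notes MAS5 and GCRMA were used, with no version or role, and the sources used here name no genome build. Of 8799 probe sets 59 array controls were not tested. Symbols came from the supplied platform annotation, and the Entrez identifiers of all 14 members matched RefSeq's GRCr8 gene table.

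From the deposited intensities log2(signal + 16) was computed, quantile normalised over 10 arrays, and the 3 technical arrays averaged. Group was the only term in limma 3.58.1 (R 4.3.3; lmFit, eBayes, two-sided), adjusted by Benjamini-Hochberg over 8740 probe sets, with a threshold of 0.05. The step was tested on simulated data. Single values per culture had an exact permutation test over 56 assignments (smallest p 0.0179). Arrays have no counts, so their number limits precision.

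The members and lists were chosen with earlier results of these data known. All members are named, and from each list every gene that passed plus fixed reference genes (Lgmn, Lamp1, Lamp2, Cd63, Cd68, Cd74, M6pr, Igf2r, Tpp1 and Psap where measured). Alternatives covered scaling, pseudocount, low-signal and specificity filters, technical arrays, variance prior, a replicate block and omission of each culture. Protein sequences were not used here. One planned promoter motif is not reported here.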

Additional observations from a re-analysis of the deposited data

Results flagged for a closer look

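In the controls the brighter Cst3 probe set (rc_AI231292_g_at) had 1 culture far from the others. Control culture 3 lay at 9.88 on the normalised log2 scale, while the other controls lay between 8.97 and 9.002, so the gap took up most of the group's range. Unscaled, the same culture was the lowest control, at 7.85 against 8.19 to 9.91 in the others, and that check flagged no culture. Control culture 3 was also the dimmest array, and the part of this dimness in the normalised value was not tested. After normalisation the other Cst3 probe set lay at 8.20 in that culture, within the range of the controls. With 28 such checks (14 probe sets, normalised and unscaled), chance alone flags about 1 in 20.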

How the results depend on the processing

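Without scaling 39 of all probe sets passed (38 higher, 1 lower) and 0 of the 14 cathepsin and cystatin probe sets, against 134 (81 higher, 53 lower) and 4 quantile normalised; with medians subtracted 100 were higher and 27 lower, and with the trimmed mean 82 and 39. Without scaling and without control culture 3, chosen after seeing the data, 48 and 2 passed. With a pseudocount of 1, 67 of all passed, and without probe sets of reduced specificity 59, and 2 of the members, since 2 called members were left out. Leaving out 1 culture at a time gave 68 to 153 of all and 3 to 5 members. With culture number as a replicate block 22 of all and 3 members passed, and Ctsb did not (-1.30, adjusted p = 0.310). The deviations of same-numbered cultures of the 2 groups had correlations of -0.03, 0.00 and -0.01. The labels do not say what a shared number means. These correlations cannot settle whether such cultures had a brain or a day in common. The directions of Ctsl, Ctsd, Ctsb, Ctss, Ctsk and both Cst3 probe sets were kept in every setting run. Small differences turned. Ctsc (D90404_at) was -0.015 with culture as a random block and -0.040 to 0.46 with 1 culture left out. Ctsc (D90404_g_at) was 0.46 without scaling, 0.24 without scaling and control culture 3, 0.34 with medians subtracted, 0.063 with the trimmed mean, 0.0069 and 0.060 with array 1a or 1b alone, and -0.26 to 0.14 with 1 culture left out. Ctsh was -0.14 with array 1c alone, -0.10 with the random block, -0.11 with the replicate block and -0.13 to 0.28 with 1 culture left out. Cstb (rc_AI008888_at) was -0.0050 with the trimmed mean, -0.040 with array 1c alone and -0.10 to 0.17 with 1 culture left out. Cstb (rc_AI008888_g_at) was 0.43 without scaling, 0.31 with medians subtracted and 0.022 without scaling and control culture 3. The causes were not tested. The number of arrays and, for Ctsk, signal near the floor limit what could be detected.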
